A study of Homo sapiens with 6 samples.

Results

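Fatty acid synthesis and desaturation was examined through 10 enzyme genes, ACLY, ACSS2, ACACA, FASN, ELOVL6, SCD, ELOVL5, FADS2, FADS1 and ACSL3, taken by name. They were chosen with earlier results of these data known, so their counts beside those of all genes are descriptive only. Every probe set whose platform annotation gives one of these symbols and no other was used. This gave 21 of 54675 probe sets, for 8 of the 10 genes. Probe sets annotated to FADS1 also carry a second gene, and ACSL3 was not analysed here. The cells were Kasumi-1, a human myeloblast line from acute leukaemia whose translocation joins RUNX1 to RUNX1T1. Of 6 RNA samples profiled on one-colour Affymetrix 3' expression arrays, 3 received vehicle and 3 received 20 nM homoharringtonine (HHT), a plant alkaloid that blocks translation elongation, each for 24 h. The labels name neither the vehicle nor a separate culture for each array. The p-values therefore cover only the spread between these arrays, which may be technical. All arrays are of 1 cell line grown in serum-containing medium, and no untreated arrays without vehicle were used. In bulk RNA, fewer cells of a kind and less RNA per cell cannot be told apart.

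Cells build fatty acids in the cytosol from acetyl-CoA. ATP citrate lyase (ACLY) cuts exported citrate to give acetyl-CoA, and acetyl-CoA synthetase (ACSS2) makes it from acetate. Acetyl-CoA carboxylase (ACACA) turns it into malonyl-CoA, and fatty acid synthase (FASN) joins these units into palmitate. The elongase ELOVL6 lengthens saturated and monounsaturated chains, and stearoyl-CoA desaturase (SCD) puts in the first double bond. ELOVL5 and the desaturases FADS1 and FADS2 build polyunsaturated chains from dietary precursors. Many of these genes are known targets of the SREBP transcription factors, which the membrane proteins SCAP and INSIG1 hold or release according to sterol supply.

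Transcripts of 7 of the 8 measured enzymes were lower after HHT. FASN and SCD were about 7-fold lower, ACLY about 3-fold, ACACA and FADS2 about 2.5-fold, and ELOVL5 and ELOVL6 about 1.8-fold and 1.7-fold. ACSS2 alone did not pass the test. In all 7 of these genes every HHT array lay below every vehicle array, a separation seen in 29.0% of the 13572 genes tested. At a Benjamini-Hochberg adjusted p under 0.05 from limma, 7 of 8 members fell and 0 rose, where 24.2% of all genes fell and 29.6% rose. With a fall of at least 1 on the log2 scale also required, 5 members were counted, against 5.94% of all genes. The median change of the 8 members was -1.33 and that of all genes -4.15e-05. "Rose" and "fell" are used below for genes past this threshold only. A gene is represented by the probe set of highest mean among those annotated to it alone, and all values are log2 signals, for which a difference of 1 is a 2-fold change.

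**Figure D1:**
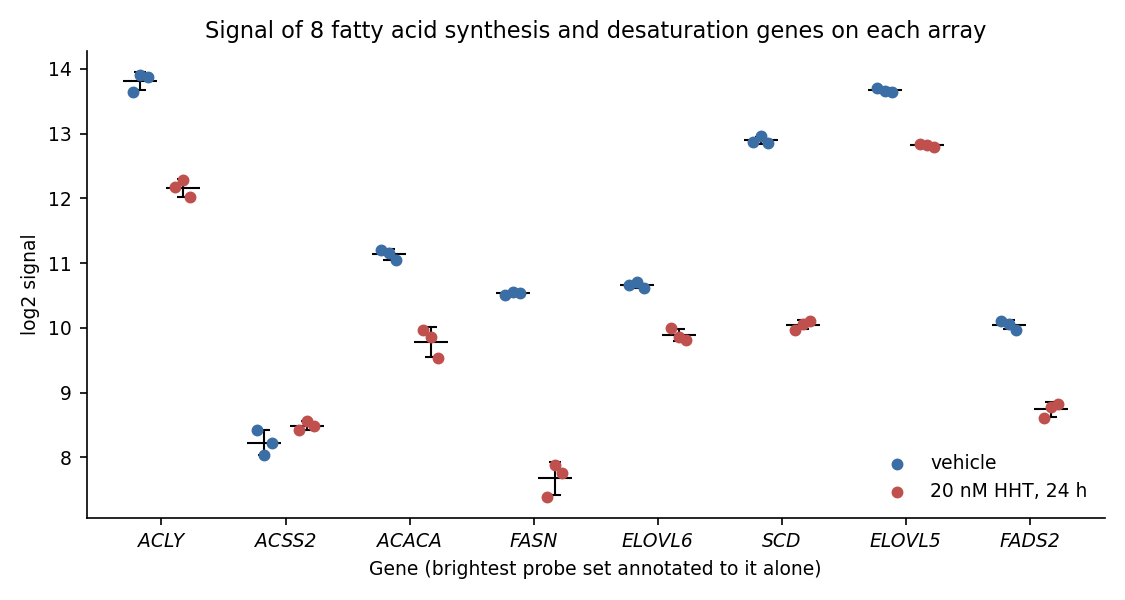
Log2 signal (vertical axis) of the brightest probe set of each of the 8 measured genes (horizontal axis) on the 3 vehicle arrays (blue) and the 3 arrays of 20 nM HHT for 24 h (red). Bars give mean ± SD over 3 arrays. For ACSS2 the groups overlap, and for the other 7 genes the HHT arrays lie below the vehicle arrays. Heights of different genes cannot be compared, because probe sets differ in brightness.

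Both sources of cytosolic acetyl-CoA were measured, and they differed in their change. ACLY gave 13.65, 13.91 and 13.87 on the vehicle arrays and 12.17, 12.29 and 12.02 on the HHT arrays. The groups were separated by more than a log2 unit. ACLY fell by 1.65 (SE 0.0855, adjusted p = 1.88e-07), or 3.14-fold. The 2 other ACLY probe sets changed by -1.74 and -2.01, so the 3 probe sets of this gene gave 3.14-fold to 4.02-fold. ACSS2, with 1 probe set, gave 8.42, 8.04 and 8.22 in vehicle and 8.42, 8.55 and 8.49 in HHT. The lowest HHT array was level with the highest vehicle array. Its difference was 0.26 (SE 0.136, 95% confidence interval -0.04 to 0.56, adjusted p = 0.148), which was not called. ACSS2 was called higher when the arrays were set to equal medians (0.50, adjusted p = 0.0214) or to equal hybridisation controls (0.54, adjusted p = 0.00778). ACLY minus ACSS2, taken within each array and so free of any constant added to an array's log2 signals, changed by -1.91. It had the smallest exact permutation p that 3 against 3 arrays allow (0.1, two-sided), and 0.129 adjusted over the 9 such pairs examined. The pair was chosen after the values were seen, and the adjustment does not correct for that choice.

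The enzymes that commit and assemble the chain both fell. ACACA, the rate-limiting carboxylase, gave 11.20, 11.16 and 11.04 in vehicle and 9.97, 9.85 and 9.53 in HHT. The gap between the groups exceeded the range within either. It fell by 1.35 (SE 0.111, adjusted p = 3.53e-06), 2.55-fold, and its second probe set fell by 1.07 (adjusted p = 0.000981). FASN gave 10.50, 10.55 and 10.54 in vehicle and 7.39, 7.88 and 7.76 in HHT. The vehicle arrays were tightly grouped (SD 0.0260) and the HHT arrays were more spread (SD 0.253). FASN fell by 2.85 (SE 0.130, adjusted p = 9.12e-08), 7.23-fold. In the order of fitted changes from the lowest, FASN stood 20th of 13572 genes, ACLY 224th and ACACA 482nd. FASN minus ACACA within each array changed by -1.51 (exact permutation p = 0.1, two-sided; 0.129 adjusted), and by -0.55 from the means of each gene's probe sets. A dim second FASN probe set, at 6.87, 5.15 and 4.76 in vehicle and 5.26, 6.64 and 2.90 in HHT, overlapped between groups and was not called (-0.66, SE 0.891, adjusted p = 0.581). Within arrays, the brighter FASN probe set minus this dim one changed by -2.20 (exact permutation p = 0.2, two-sided, and 0.225 adjusted). With the mean of both probe sets in place of the brighter one, FASN changed by -1.75 (adjusted p = 0.0126).

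SCD fell on all 4 of its probe sets. The brightest gave 12.87, 12.96 and 12.85 in vehicle and 9.97, 10.07 and 10.11 in HHT. No HHT array came within 2 log2 units of a vehicle array. This probe set fell by 2.85 (SE 0.0664, adjusted p = 5.29e-09), 7.19-fold, and stood 21st of 13572 genes, next to FASN. A second SCD probe set fell by 2.44, from 8.41 ± 0.0965 to 5.97 ± 0.263 (SD, n = 3). The other 2 had HHT means of 3.54 and 2.72, below the level of 4.80 that bounded the filter on dim probe sets. They passed the filter only through their vehicle arrays, so their calls are no separate support for the fall. With each array set to at least this level, they were at least 4.99-fold and at least 4.26-fold lower. The level comes from the filter, not from a measured limit of detection.

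ELOVL6, which extends palmitate, gave 10.66, 10.71 and 10.62 in vehicle and 9.99, 9.85 and 9.81 in HHT. The groups did not overlap. It fell by 0.78 (SE 0.0801, adjusted p = 1.76e-05), 1.71-fold. Its other probe sets, both called, changed by -0.83 and -1.65, so the size of the ELOVL6 change depends on the probe set, from 1.71-fold to 3.15-fold.

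In the polyunsaturated branch, ELOVL5 gave 13.71, 13.65 and 13.64 in vehicle and 12.84, 12.82 and 12.79 in HHT. Each group was tight (SD 0.0370 and 0.0252), and the groups were well apart. ELOVL5 fell by 0.85 (SE 0.0498, adjusted p = 3.95e-07), 1.80-fold. Its 3 dimmer probe sets did not move alike. One fell by 1.55 (adjusted p = 0.0151), one was at -0.23 (adjusted p = 0.403), and one was at 0.22 (adjusted p = 0.419), with all 3 HHT arrays above the vehicle arrays. The brightest probe set minus each of the 2 uncalled ones changed by -0.62 and -1.07 within arrays (exact permutation p = 0.1 for both, two-sided; 0.129 adjusted). FADS2, the delta-6 desaturase, gave 10.11, 10.06 and 9.97 in vehicle and 8.61, 8.78 and 8.83 in HHT. It fell by 1.30 (SE 0.0987, adjusted p = 2.02e-06), 2.47-fold, and the groups did not overlap. A second FADS2 probe set was not tested, because its mean over the 6 arrays lay below the filter level. It gave 6.15, 5.64 and 6.38 in vehicle, all above that level, and 0.96, 4.69 and 1.40 in HHT, all below it. It was at least 2.39-fold lower with the HHT arrays set to the filter level. Averaged with it, FADS2 changed by -2.50 (adjusted p = 0.00170). The elongases ELOVL5 and ELOVL6 changed by nearly the same amount, with a within-array difference of -0.07 (exact permutation p = 0.3, two-sided; 0.3 adjusted). That difference was 0.30 after quantile normalization and 0.49 from the means of probe sets, so its sign is not settled.

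Over all member probe sets, 16 of the 20 tested fell, 0 rose and 4 were not called, where 23.3% of all probe sets fell and 23.0% rose. The 16 include the SCD probe sets with HHT means below the filter level, which passed the filter only through their vehicle arrays. The mean was higher in HHT for the probe set of ACSS2 and for 1 of ELOVL5, and lower for the others. The share with a lower mean was not counted over all probe sets. Array medians over all probe sets but the controls were 5.82 to 5.96 in vehicle and 5.53 to 5.77 in HHT. With 1 probe set per gene, the median change of all genes tested was -4.15e-05, so about as many genes were lower as higher. A lower mean in HHT is thus not particular to the members.

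**Figure D2:**
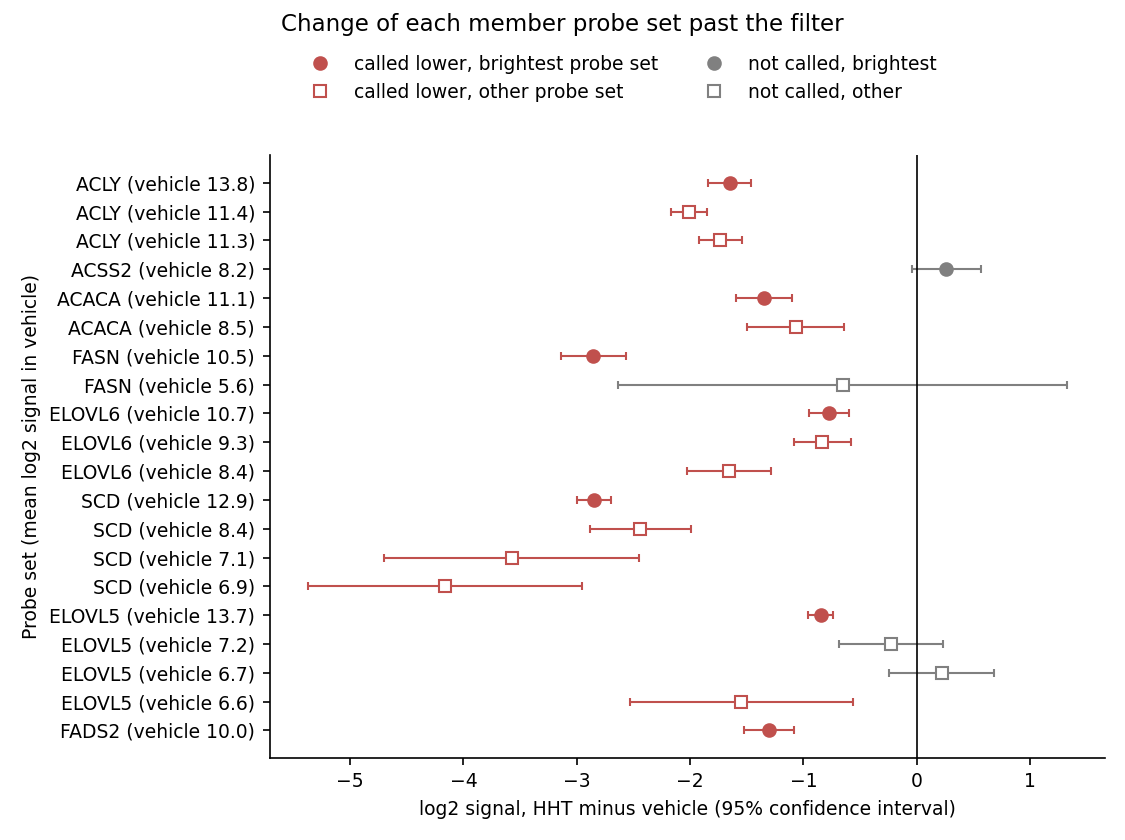
Log2 signal of HHT minus vehicle (horizontal axis) for each of the 20 member probe sets past the filter (vertical axis, with the mean vehicle signal), with 95% confidence intervals from limma. Filled circles are the brightest probe set of a gene, open squares its others, red those called lower and grey those not called. The bright probe sets of SCD, FASN and ACLY lie far below 0 with short intervals, and the 4 uncalled ones belong to ACSS2, FASN and ELOVL5.

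As 7 of the 8 measured members fell, the 250 bases before each annotated start were read from RefSeq promoter sequences (GRCh38.p14), which matched 7 of the 8 measured genes; FASN was the exception. Exact matches on either strand were counted for TCACNCCAC (a sterol regulatory element, bound by SREBP), CCAAT (bound by NF-Y), CACGTG (the E-box, bound by MYC and others) and GGGCGG (an Sp1 box). No motif is contained in another. The windows of SCD and ELOVL5 are shown for genes that fell and hold CCAAT, that of FADS2 for one that fell and whose first listed window holds none of the 4 motifs, and that of ACSS2 as the member that was not called. Capitals mark matches to CCAAT, on either strand, and to CACGTG, and each is written 5′ to 3′ on the strand of its gene: SCD at chr10:100346983-100347232 (plus), ELOVL5 at chr6:53348951-53349200 (minus), FADS2 at chr11:61815953-61816202 (plus) and ACSS2 at chr20:34874739-34874988 (plus).
SCD: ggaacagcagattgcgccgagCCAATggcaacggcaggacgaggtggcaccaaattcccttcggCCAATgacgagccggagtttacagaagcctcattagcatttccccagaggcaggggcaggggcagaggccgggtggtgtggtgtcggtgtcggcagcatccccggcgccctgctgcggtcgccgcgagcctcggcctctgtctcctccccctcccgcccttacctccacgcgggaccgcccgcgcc
ELOVL5: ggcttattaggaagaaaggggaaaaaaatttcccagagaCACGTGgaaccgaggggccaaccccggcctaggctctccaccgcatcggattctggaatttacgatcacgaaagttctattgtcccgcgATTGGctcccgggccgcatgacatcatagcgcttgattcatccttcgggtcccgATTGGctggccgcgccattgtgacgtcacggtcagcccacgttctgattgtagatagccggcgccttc
FADS2: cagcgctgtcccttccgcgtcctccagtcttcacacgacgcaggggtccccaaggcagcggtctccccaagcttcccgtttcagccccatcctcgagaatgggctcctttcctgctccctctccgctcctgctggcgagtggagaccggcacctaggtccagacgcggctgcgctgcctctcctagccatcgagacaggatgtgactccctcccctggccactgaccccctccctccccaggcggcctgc
ACSS2: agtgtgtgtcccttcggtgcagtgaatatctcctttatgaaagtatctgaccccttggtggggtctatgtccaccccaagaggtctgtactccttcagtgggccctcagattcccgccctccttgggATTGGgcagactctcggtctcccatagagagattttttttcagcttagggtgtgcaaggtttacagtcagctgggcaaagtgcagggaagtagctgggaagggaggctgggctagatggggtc

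SCD held CCAAT starting 229 and 186 bases before its start, and ELOVL5 held it on the opposite strand 122 and 68 bases before. ACSS2, not called, also held 1 match. In at least 1 of a gene's listed windows, CCAAT was found in 5 of the 7 members with a sequence (ACLY, ACACA, SCD, ELOVL5 and ACSS2) and in 37.0% of all 27305 genes of the table. GGGCGG was found in 6 of 7 and in 46.2% of all genes, and CACGTG in ELOVL5 alone and in 7.73%. TCACNCCAC was in none of the 7 members and in 1.09% of all genes. ACLY, ACACA, FADS2 and ACSS2 have more than 1 listed start and so more sequence searched. A match of letters does not show that a factor binds, and the absence of a match covers only these windows.

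A list of genes for SREBP, LXR and ChREBP control, which also holds subunits of the kinase AMPK, did not move one way. Of 13 tested, 5 fell and 6 rose, with a median of 0.13. The counts of this and the lists below stand beside 24.2% of all genes that fell and 29.6% that rose. INSIG1, the sterol-regulated retention protein, gave 13.16, 13.27 and 13.02 in vehicle and 10.17, 10.21 and 10.29 in HHT, and fell by 2.93 (SE 0.0742, adjusted p = 5.29e-09). Its other probe sets, both called, changed by -2.84 and -3.07. SREBF2, which encodes SREBP2, fell by 1.27 (SE 0.182), from 8.73 ± 0.0897 to 7.46 ± 0.357 (SD, n = 3). SCAP, the SREBP escort protein, fell by 0.60 (SE 0.0935). SREBF1, whose product SREBP1 drives fatty acid genes, was at 9.29 ± 0.149 in vehicle and 9.41 ± 0.0550 in HHT (SD, n = 3) and was not called (0.13, adjusted p = 0.341). It was called higher with equal hybridisation controls (0.41, adjusted p = 0.00789), while a dimmer SREBF1 probe set fell by 1.64 (adjusted p = 0.0284) and the mean of its probe sets was lower (-0.76, adjusted p = 0.0434). The direction of SREBF1 is thus unsettled. NR1H3, the sterol sensor LXR-alpha, rose by 1.37 (SE 0.254), from 6.51 ± 0.393 to 7.89 ± 0.335 (SD, n = 3). PRKAG1, a regulatory subunit of the kinase AMPK, rose by 1.48 (SE 0.0734). MLXIPL did not pass the filter.

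Of 8 suppliers of citrate and NADPH, 7 fell and 0 rose, with a median of -0.43. IDH1, which makes cytosolic NADPH, fell by 1.37 (SE 0.0897), from 12.47 ± 0.170 to 11.10 ± 0.0990 (SD, n = 3). SLC25A1, the mitochondrial citrate carrier, fell by 1.01 (SE 0.163). The pyruvate carboxylase gene PC fell by 1.03 (SE 0.362, adjusted p = 0.0378), but was not called under any of the other 3 scalings (adjusted p from 0.0566 to 0.120) or in the 5 fits that left out an array other than HHT 1 (adjusted p from 0.0520 to 0.120). With equal medians or equal hybridisation controls only 2 of the 8 genes of this list fell.

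Of 11 paralogues of the members, 3 fell and 3 rose, with a median of -0.14, and 1 fell and 4 rose with equal medians or equal hybridisation controls. SCD5, the second human stearoyl-CoA desaturase, fell by 0.84 (SE 0.128), from 10.52 ± 0.287 to 9.67 ± 0.0492 (SD, n = 3), but its 3 other probe sets were not called and neither was the mean of all 4 (-0.47, adjusted p = 0.129). ELOVL3 rose by 0.96 (SE 0.340, adjusted p = 0.0389) from a dim 5.23 ± 0.116 (SD, n = 3), a call lost in the 5 fits that left out an array other than vehicle 1 (adjusted p from 0.0517 to 0.149). ACACB, the mitochondrial carboxylase, differed by 0.24 (adjusted p = 0.146) and FADS3 by -0.40 (adjusted p = 0.105), neither called. Within arrays, SCD minus SCD5 changed by -2.00, ACACA minus ACACB by -1.59 and FADS2 minus FADS3 by -0.91 (exact permutation p = 0.1 for each, two-sided; 0.129 adjusted). From the means of probe sets these were -2.79, -1.19 and -1.85. These pairs, like ACLY with ACSS2 and FASN with ACACA, were chosen after the values were seen.

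Partners of elongation and desaturation fell in 5 of 9 cases and rose in 1, with a median of -0.28. Only 1 of 9 fell with equal medians or equal hybridisation controls, and 3 rose with the latter. From the means of probe sets, 2 fell and 0 rose. CYB5R3, the reductase that passes electrons to cytochrome b5 for desaturation, fell by 1.46 (SE 0.0633), from 12.86 ± 0.0926 to 11.40 ± 0.0284 (SD, n = 3). CYB5R1 rose by 0.76 (SE 0.173), and was not called from the mean of its probe sets (0.10, adjusted p = 0.825). TECR and HACD3, which complete each elongation cycle, differed by 0.06 and -0.07 and were not called. In mitochondrial fatty acid synthesis, a separate pathway that feeds lipoate synthesis, 2 of 8 genes fell and 3 rose, with a median of 0.19. Only 1 fell without vehicle 1, vehicle 2, HHT 2 or HHT 3. With equal medians 1 fell and 5 rose, and with equal hybridisation controls 1 fell and 6 rose. LIAS rose by 0.86 (SE 0.0796) and the acyl carrier protein NDUFAB1 fell by 0.73 (SE 0.0840).

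Fatty acid oxidation, which breaks chains down, had 5 of 17 genes lower, 4 higher and a median of -0.10. With equal medians 3 fell and 5 rose, and with equal hybridisation controls 2 fell and 7 rose. CPT2, of the carnitine shuttle, rose by 0.80 (SE 0.138), and DECR1, needed to oxidise unsaturated chains, by 0.75 (SE 0.0593). Glycerolipid synthesis had 5 of 16 lower, 5 higher and a median of -0.06, and 4 fell and 6 rose under either of those scalings. AGPAT5, an acyltransferase, fell by 1.10 (SE 0.0686). PCYT2, of phosphatidylethanolamine synthesis, fell by 0.94 (SE 0.183). The 5 that rose, named after their values were seen, were PCYT1A (0.89), GPAM (0.87), LPIN1 (0.73), CEPT1 (0.47) and GPAT3 (1.99, SE 0.718, adjusted p = 0.0428), the last from a vehicle mean of 4.14 ± 1.57 (SD, n = 3), below the filter level. For uptake, binding and storage, 4 of 9 fell and 3 rose, with a median of -0.38; without HHT 1, 1 rose. FABP5, a fatty acid binding protein, gave 13.64, 13.80 and 13.63 in vehicle and 10.69, 10.81 and 10.88 in HHT. It fell by 2.90 (SE 0.0715, adjusted p = 5.29e-09), 7.44-fold, a change close in size to those of FASN and SCD. The lipid droplet gene HILPDA fell by 1.40 (SE 0.141). Over these 8 lists together, 36 of 91 genes fell (39.6%) and 25 rose (27.5%), with a median of -0.12. Over all genes, 24.2% fell and 29.6% rose. With equal medians 20 genes of the lists fell and 30 rose, and with equal hybridisation controls 19 fell and 37 rose. The balance of these lists thus turns with the scaling. All genes shifted the same way, from 3280 lower and 4017 higher as deposited to 1718 and 5062 with equal medians. With equal hybridisation controls they were 1741 and 5640.

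**Figure D3:**
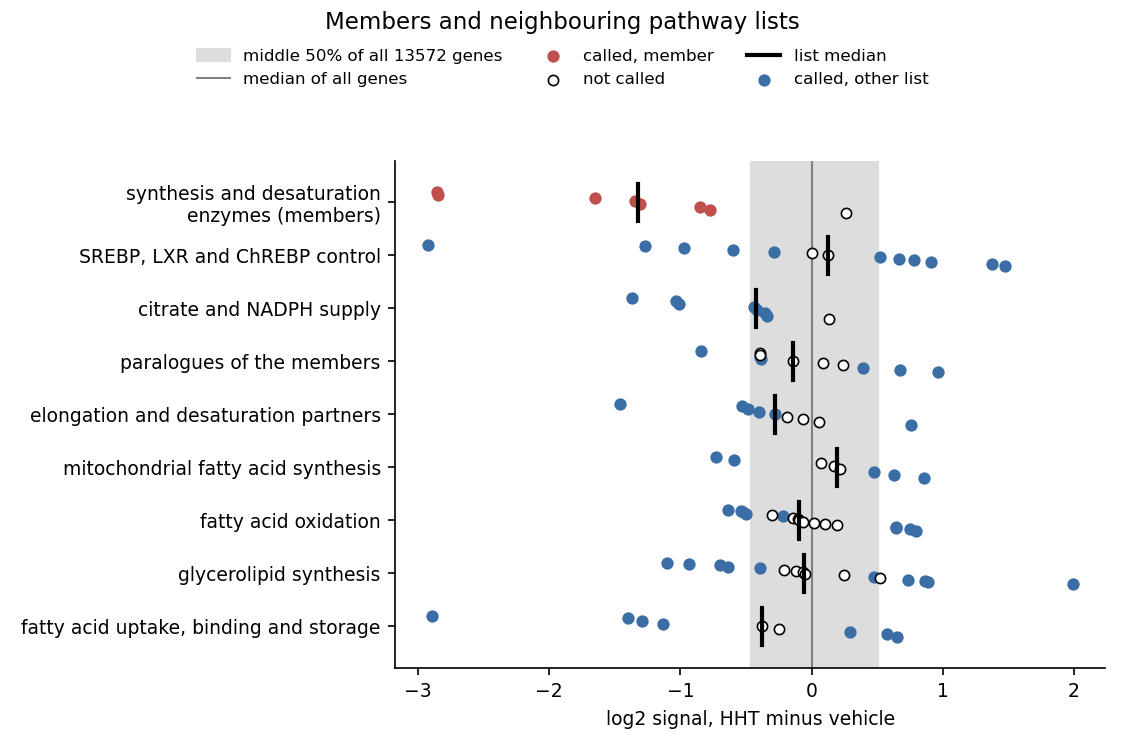
Log2 signal of HHT minus vehicle (horizontal axis) for each tested gene of the members (top, red) and of 8 neighbouring lists (blue); open circles are genes not called, black bars list medians, and the grey band the interquartile range of all 13572 genes. The median of the members, -1.33, lies left of the band, and those of the other lists, from -0.43 to 0.19, lie within it.

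Some facts of the arrays moved with the groups. The 18 probe sets for transcripts added at hybridisation averaged 11.98 ± 0.0282 in vehicle and 11.70 ± 0.0598 in HHT (SD, n = 3), a shift of -0.28 (two-sided exact permutation test, p = 0.1, its floor). Setting these controls equal moved the median of all genes to 0.28, and equal array medians moved it to 0.24. The share of calls that were higher went from 55.1% as deposited to 76.4% and 74.7%. The same 7 members were called lower under both and after quantile normalization. The median of the 8 measured members minus that of all genes was -1.33 as deposited and -1.47 after quantile normalization; the other 2 scalings add a constant to each array and so cannot move it. Of 7 myeloid blast markers, 5 were tested. RUNX1T1, at 13.23 ± 0.0382 in vehicle and 13.20 ± 0.0379 in HHT (SD, n = 3), was not called (-0.03, adjusted p = 0.679), nor was ANPEP (-0.31, adjusted p = 0.271). KIT (-0.62), MPO (-1.76) and CD34 (-1.18) fell. The summed signal of the 5, off the log scale, was 58524 to 65812 in vehicle and 34300 to 36390 in HHT. Of 13 markers of other cell types, 9 were tested and 2 fell, EPCAM (-0.76) and COL1A1 (-0.86), with a summed signal of 16745 to 17156 in vehicle and 11526 to 12166 in HHT. EPCAM, an epithelial marker, was bright at 13.69 ± 0.0216 in vehicle (SD, n = 3), as was CD3D at 11.62 ± 0.0197 (SD, n = 3). The other 7 had vehicle means of 7.48 or less. EPCAM thus made up most of this sum in both groups, and CD3D was not called (0.14, adjusted p = 0.117). The part of these shifts in the lower signal of the members was not tested.

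**Figure D4:**
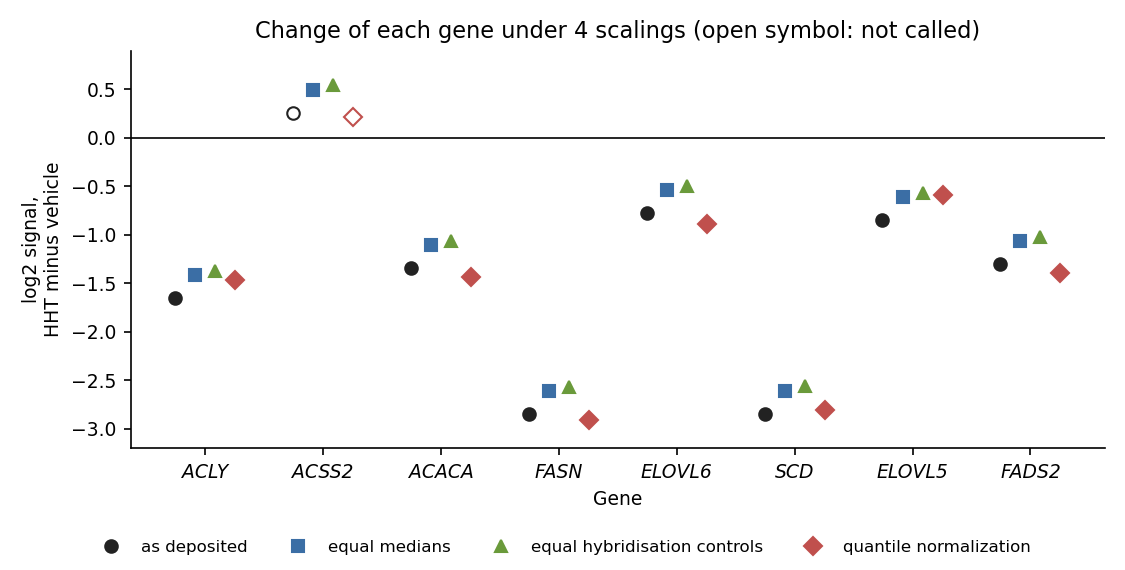
Log2 signal of HHT minus vehicle (vertical axis) for each measured gene (horizontal axis) under 4 scalings of the arrays; filled symbols are called at an adjusted p under 0.05 and open ones are not. The 7 genes that fell stay below 0 under each scaling, and ACSS2 is called higher with equal medians (0.50) and equal hybridisation controls (0.54) but not under the other 2.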

How the data were processed

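The authors deposited log2 signals for each probe set on each array. Per the submitters' processing notes they used MAS5, with no version stated. Per the values, each array was scaled to the same trimmed mean of about 500, so levels are relative within an array. The genome build is not given in the sources used here, and detection calls were not used here. The 62 control probe sets were left out, and so were the dimmest 40% of the rest by mean over the 6 arrays (level 4.80), which left 32768. Single-gene probe sets were named by the platform annotation, updated through RefSeq Entrez IDs. HHT was compared with vehicle in limma 3.58.1 (R 4.3.3; lmFit, eBayes with a variance trend), with Benjamini-Hochberg adjustment over all tested probe sets. Only 3 arrays per group limit the precision. Simulated data with 32768 probe sets were also fitted. There, 35% of 100 changes of 1 and 72% of 100 changes of 2 on the log2 scale were recovered. Only these probe sets were changed in the simulation, whereas 23.3% of tested probe sets fell and 23.0% rose in the data. The Benjamini-Hochberg cut-off is stricter where fewer probe sets change. The simulated shares therefore do not give the recovery in these data.

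The members and lists were chosen with earlier results of these data known. Named beside the members were SREBF1, SREBF2, INSIG1, SCAP and NR1H3, and from each list the 2 called genes of largest change with both means above the filter level; other genes named were chosen after their values were seen. Alternatives were a pseudocount of 64, 3 other scalings, no filter, a 60% filter, no or a robust variance trend, weights per array, a block for replicate number, stricter thresholds, means of probe sets, and leaving out each array. No pairs of arrays were treated as matched.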

Additional observations from a re-analysis of the deposited data

How the results depend on the processing

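ACLY, ACACA, FASN, SCD and FADS2 were called lower in all 19 alternative settings, of which the stricter thresholds reuse the main fit. ELOVL5 and ELOVL6 were called lower in 18, missing only the added demand for a change of at least 1. Without 1 array, their values ran from -1.73 to -1.58 for ACLY, -1.44 to -1.22 for ACACA, -2.95 to -2.71 for FASN, -2.88 to -2.81 for SCD, -0.86 to -0.83 for ELOVL5, -0.83 to -0.74 for ELOVL6, and -1.35 to -1.24 for FADS2. ACSS2 ran from 0.16 to 0.36 and was called in none of those 6 fits. Under equal medians and under equal hybridisation controls alike, 1 member gene and 1 member probe set, that of ACSS2, were called higher; the median of the members was then -1.09 and -1.04, and 20 and 19 genes of the 8 neighbouring lists were lower and 30 and 37 higher, as these scalings shift every gene upwards. From the means of probe sets the median of the members was -1.48. Requiring a change of at least 1 left 11 lower and 3 higher genes in the neighbouring lists. The ELOVL5 minus ELOVL6 difference turned to 0.30 after quantile normalization and to 0.49 from the means of probe sets, and the SREBF1 change to -0.76 from those means; the cause was not tested.

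Arrays carry numbers 1 to 3 within each group in the labels. The deviations of same-numbered arrays were only weakly related (correlations across probe sets of 0.07, -0.01 and 0.05). Vehicle arrays 1 and 3 correlated best with the HHT array of their own number, and vehicle array 2 with HHT array 1. With the replicate number as a block, 7 member genes and 16 member probe sets were lower, 35 genes of the neighbouring lists fell and 24 rose, and over all genes 3333 fell and 4061 rose. Of the genes named, ELOVL3 lost its call under the block (adjusted p = 0.0658).

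Signal over background limits what dim probe sets show. The second FASN probe set has a wide interval (-2.63 to 1.32). The second FADS2 probe set, below the filter level on its HHT arrays only, was not tested. For ELOVL5, the interval of 1 uncalled probe set (-0.24 to 0.68) lies apart from that of the brightest (-0.96 to -0.74); the cause was not tested.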

Other observations

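Probe sets annotated to FADS1, the delta-5 desaturase, also carry the microRNA gene MIR1908 in the annotation, so they name neither gene. Of these 3 probe sets, the first gave 11.94, 11.99 and 11.78 in vehicle and 10.87, 10.80 and 10.96 in HHT. All 3 fell in limma's fit, by 1.03 (SE 0.0765, adjusted p = 1.80e-06), 1.19 (SE 0.0643, adjusted p = 2.42e-07) and 1.24 (SE 0.0647, adjusted p = 1.96e-07), with no overlap between the groups. These changes lie beside that of FADS2 (-1.30).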
